A study of Caenorhabditis elegans with 6 samples.

Results

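The genes described here are 10 genes of the pharynx of the nematode Caenorhabditis elegans, chosen by their symbols. They are hlh-6, a transcription factor gene of the pharyngeal glands, the gland genes phat-1, phat-2, phat-3 and phat-5, and the abu genes abu-1, abu-6, abu-7, abu-8 and abu-11. All 10 were found, each as 1 RefSeq transcript record, among 39875 named genes with a record in the count tables. The tables come from whole starved first-stage (L1) larvae that hatched overnight in M9 buffer. There were 3 libraries from the wild-type strain N2 and 3 from the double mutant spr-5 (by101) on chromosome I with met-2 (n4256) on chromosome III. SPR-5 is a histone H3 demethylase and MET-2 a histone H3 methyltransferase. Both groups were grown on HT115 bacteria, and the file headers of both carry the vector name L4440. The labels do not give the generation of the mutants or say whether replicates of a group were separate cultures, and a p-value here therefore reflects only how these libraries scatter, possibly for technical reasons.

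The pharynx is the worm's feeding organ, a muscular tube with its own glands and its own cuticle lining. Gland cells secrete into the lumen, and the basic helix-loop-helix factor HLH-6 is needed for their development and for expression of many of their genes, among them phat genes. The name phat stands for pharyngeal gland toxin-related. The abu genes were named for being activated when the unfolded protein response of the endoplasmic reticulum (ER) is blocked. Many encode proteins rich in cysteine, glutamine and asparagine, and several are expressed in the pharynx, where they and the related pqn genes contribute to the pharyngeal cuticle, with transcripts that rise and fall with the moulting cycle.

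The gland transcripts phat-3, phat-5 and hlh-6 were measured in every library at 8.66 CPM or more, while phat-1 and phat-2 did not exceed 3.09 CPM. No abu gene among the 10 exceeded 9.89 CPM, a level abu-8 had in double mutant replicate 3. The gene abu-6 had no count at all. CPM is a library's count scaled to its TMM-adjusted total. Total counts ranged from 17062557 to 25368364 per library, and 1 count corresponded to 0.0356 to 0.0552 CPM. Of the 10 genes, 7 passed the filter on low counts and were tested, and abu-1, abu-6 and abu-7 were not. In all, 14557 records were tested, of which 25.9% differed between the groups (edgeR's quasi-likelihood test, adjusted p below 0.05), with 14.3% higher and 11.7% lower in the double mutant. In cuticle genes of the epidermis the libraries stood apart within both groups. The epidermis marker list summed to 10.5, 196 and 54.1 CPM in N2 replicates 1, 2 and 3, and to 35.6, 309 and 64.6 CPM in double mutant replicates 1, 2 and 3. Replicate 2 was thus the highest library of each group. In this list elt-1 and elt-3, transcription factor genes that define the epidermis, had 0 counts in all libraries. So did the neuron marker unc-31 and the germline marker pgl-1. These zeros gave no measurement and need not mean that the transcripts were absent.

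Of the 7 tested genes, 1 was lower in the double mutant and 0 were higher. The gene that fell was phat-3. For the count of 0, edgeR gave 0 genes also at an unadjusted p below 0.05, and DESeq2 and limma voom gave 0, while edgeR with the replicate number as a block gave 1, phat-5. The median log2 fold change of the 7 was 0.28, against -0.01 over all tested records. Its sign rests on single libraries, since it was -0.23 without double mutant replicate 3, -0.06 without N2 replicate 3, 0.04 without N2 replicate 1 and 0.79 without N2 replicate 2. It was 0.62 without double mutant replicate 1. With 1 of 7 called, the share is not set apart from the 25.9% called among all records.

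**Figure D1:**
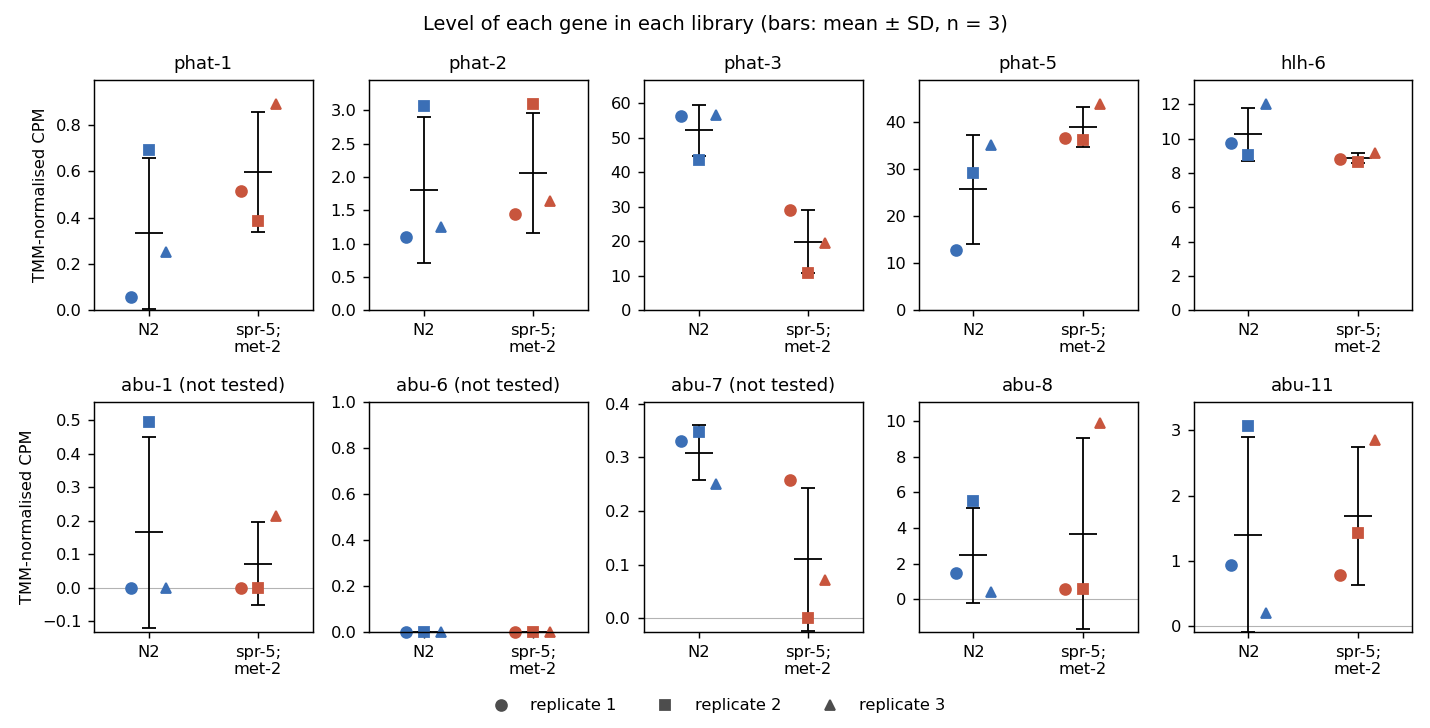
TMM-normalised CPM (vertical axes, each with its own scale) of the 10 genes in the 3 N2 and 3 double mutant libraries, with symbols for replicates 1, 2 and 3 and bars for the mean ± SD. The groups separate in phat-3 and phat-5, as they do in 43.6% of all tested records. The double mutant libraries of hlh-6 lie within 1.06-fold of each other. The genes abu-8, abu-11 and abu-1 are highest in N2 replicate 2 and double mutant replicate 3.

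The regulator hlh-6 did not pass the test. It stood at 9.73, 9.06 and 12 CPM in N2 replicates 1, 2 and 3 and at 8.79, 8.66 and 9.18 CPM in the double mutant. The groups overlapped, and the mutant libraries lay within 1.06-fold of each other. Its log2 fold change, here and throughout that of the double mutant against N2 with its SE, was -0.21 ± 0.18 (edgeR, adjusted p = 0.433), with a 95% interval from -0.62 to 0.20. The sign depends on the scaling, since with library size alone the value was 0.01, while the median of all records moved by the same scaling from -0.01 to 0.21. A fall as large as that of phat-3 lies outside the interval.

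The gland gene phat-3 fell. It stood at 56.4, 43.5 and 56.6 CPM in N2 replicates 1, 2 and 3, and at 29.1, 10.9 and 19.6 CPM in those of the double mutant. All mutant libraries were below all N2 libraries, and 43.6% of all tested records had groups that separated, in either direction. Group means were 52.2 ± 7.51 and 19.9 ± 9.09 CPM (SD, n = 3 per group), or on the log2 scale -1.39 ± 0.32 (edgeR, adjusted p = 0.0160, 95% interval -2.13 to -0.65). In the authors' deposited table the log2 fold change is -1.33 with an adjusted p of 0.000159. Over all alternatives tried, the value lay between -1.77 and -1.10. The call was lost without double mutant replicate 3 (edgeR, adjusted p = 0.0609). Because the RNA is from whole larvae, fewer gland cells and less phat-3 RNA per cell cannot be told apart.

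The gland gene phat-5 stood the other way. It was at 12.8, 29.1 and 35.2 CPM in N2 replicates 1, 2 and 3 and at 36.7, 36.2 and 43.8 CPM in the double mutant. The mutant libraries were all above the N2 libraries, though N2 replicate 3 came within a small margin of the lowest of them. Such separation of groups, in either direction, was found in 43.6% of all tested records, so by itself it sets phat-5 apart little. Its log2 fold change of 0.60 ± 0.33 did not pass (edgeR, adjusted p = 0.223, 95% interval -0.16 to 1.35). With the replicate number as a block it passed, at 0.70 (edgeR, adjusted p = 0.0477). The value was 0.26 without N2 replicate 1, the library in which the gene was lowest.

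Both genes have nearly the same exonic length, 922 bases for phat-3 and 915 for phat-5, so their levels can be set side by side. In N2, phat-3 had 56.6 and phat-5 28.1 CPM per kb of exon, and in the double mutant phat-3 had 21.5 and phat-5 42.5. The ratio of phat-5 to phat-3 counts within a library does not depend on scaling. It was 0.227, 0.669 and 0.622 in N2 replicates 1, 2 and 3 and 1.26, 3.31 and 2.24 in those of the double mutant. The order of these genes was thus reversed in every library of the double mutant. The log2 difference of the ratio was 2.21. As this pair was chosen after its values were seen, the ratio is a description, with no test.

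**Figure D2:**
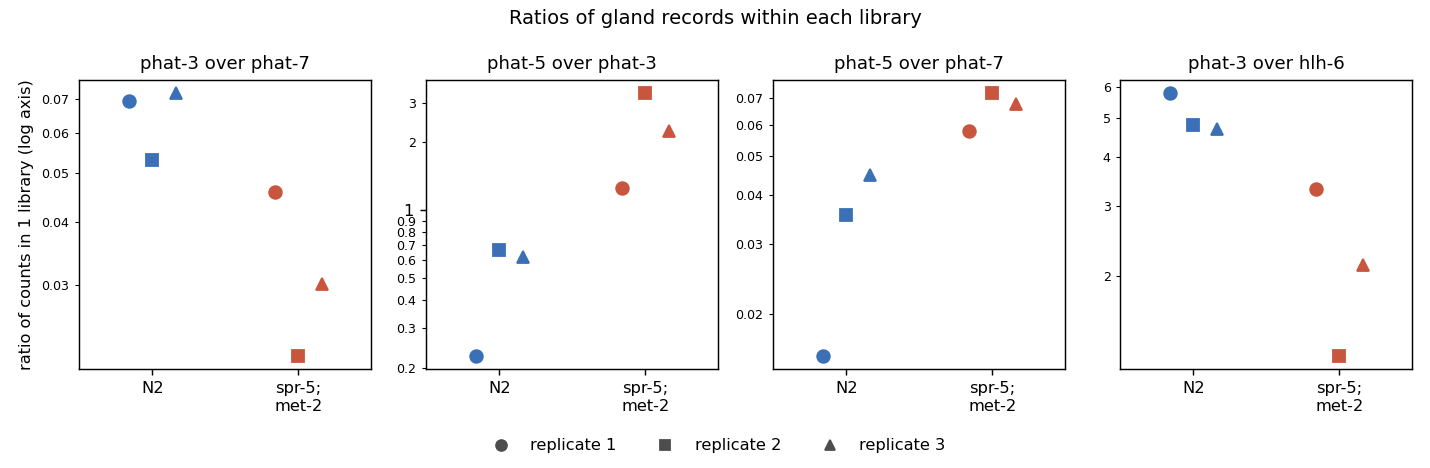
Ratios of counts of 2 gland records within each library (vertical axes, log scale), for 3 N2 and 3 double mutant libraries, with symbols for replicates. In all 4 ratios the groups do not overlap, and phat-5 over phat-3 is below 1 in N2 and above 1 in the double mutant. Each ratio holds phat-3 or phat-5, whose own levels also separate the groups.

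Another 3 ratios, chosen like the first after the values were seen, set phat-3 and phat-5 against other gland records. The ratio of phat-3 to hlh-6 was 5.80, 4.80 and 4.71 in N2 and 3.31, 1.26 and 2.13 in the double mutant, a log2 difference of -1.29. Against phat-7, its neighbour on chromosome V, phat-3 was at 0.0693, 0.0530 and 0.0719 in N2 and at 0.0459, 0.0218 and 0.0302 in the double mutant, a log2 difference of -1.04. The ratio of phat-5 to phat-7 had a log2 difference of 1.17. The part of any reads shared between phat genes was not tested, as their treatment in the counting is not given in the sources used here. In all 3 ratios the libraries of the groups did not overlap. Each ratio holds phat-3 or phat-5, whose own levels already separated the groups, so this restates those values. Levels of single records separated the groups in 43.6% of all tested records. As with the first ratio, no test is given.

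The neighbouring genes phat-1 and phat-2 on chromosome I were the least abundant of the phat records. With 1, 14 and 5 counts in N2 replicates 1, 2 and 3 and 10, 7 and 25 in the double mutant, phat-1 had a fitted log2 difference of 0.85 ± 0.70 (edgeR, adjusted p = 0.420, 95% interval -0.78 to 2.47). It was at 1.93 without N2 replicate 2, 0.35 without N2 replicate 1 and 0.42 without double mutant replicate 3. The gene phat-2 stood at 1.1, 3.07 and 1.25 CPM in N2 and at 1.45, 3.09 and 1.64 CPM in the double mutant. Replicate 2 was the highest of either group, and the groups overlapped almost wholly. Its log2 fold change was 0.17 ± 0.48 (edgeR, adjusted p = 0.827, 95% interval -0.94 to 1.29). Exons of phat-2 overlap anr-10 on the opposite strand, and the strand setting of the counting is not given in the sources used here. How reads in that overlap were counted is therefore not known.

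Of the phat records that are not among the 10 genes, phat-6, phat-7 and phat-8 were more abundant than phat-3. The highest was phat-7, at 808 ± 17.8 CPM in N2 and 595 ± 81.5 CPM in the double mutant (SD, n = 3 per group). It fell by 0.44 on the log2 scale, with an SE of 0.14 (edgeR, adjusted p = 0.0486), a call so close to the threshold that leaving out any 1 library ended it (edgeR, adjusted p from 0.0512 to 0.169). The gene phat-6 went from 145 ± 5.95 to 98.5 ± 12.9 CPM, or on the log2 scale -0.56 ± 0.13 (edgeR, adjusted p = 0.0160), lost without double mutant replicate 2 (0.0580) or 3 (0.0736). With library size alone neither passed, phat-6 at -0.33 and phat-7 at -0.22, while phat-3 stayed past the threshold at -1.17. The remaining records, phat-8 at -0.23 ± 0.15 and phat-4 at 0.37 ± 0.41, did not pass. Without N2 replicate 1, phat-8 passed at -0.40 (edgeR, adjusted p = 0.0309). Of the 8 phat records tested, 3 thus fell and 0 rose, with 4 fitted values above and 4 below 0 and a median log2 fold change of -0.03. Over all tested records 11.7% fell. With the replicate block 3 fell and 1, phat-5, rose, and the median was 0.02. With library size alone 1 fell and the median was 0.18, and with 1 library left out 0 to 3 fell, the 0 being without double mutant replicate 3, while the median ranged from -0.25 without N2 replicate 1 to 0.23 without N2 replicate 2.

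**Figure D3:**
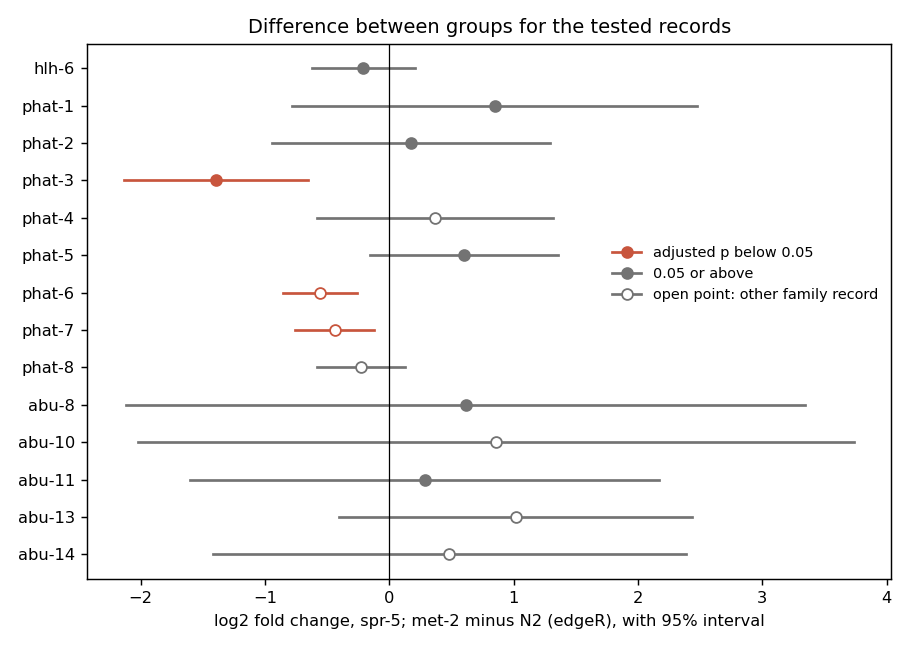
Log2 fold change of the double mutant against N2 (horizontal axis, edgeR) with its 95% interval for the 14 tested hlh-6, phat and abu records. Only phat-3, phat-6 and phat-7 have an adjusted p below 0.05, and the intervals of abu-8 and abu-10 are the widest, reaching from below -2 to above 3.

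Ordered by length-scaled level in N2, phat-7 was first at 884 CPM per kb, followed by phat-8 at 370 and phat-6 at 180. The phat-3 libraries, at 47.2 to 61.4 CPM per kb, lay below all of phat-6 and above all of phat-5, which spanned 14 to 38.5. The regulator hlh-6 followed at 10.4 to 13.8 and did not overlap phat-5. Next by mean was abu-14, whose libraries spanned 0.927 to 21.1 and so overlapped both hlh-6 and phat-5, and among phat-4, abu-13, phat-2 and abu-8 neighbouring ranges overlapped as well. In the double mutant phat-5 moved above phat-3, at 39.5 to 47.9 against 11.8 to 31.6 CPM per kb, and the regulator, at 9.91 to 10.5, then lay below all libraries of phat-3 by a narrow gap. In the double mutant abu-14 spanned 10.2 to 17.4, with a mean of 13.2 above the 10.2 of hlh-6 and ranges that overlapped.

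In a wider list of gland genes nearly as many fell as did not. It names 13 genes, of which 11 were tested, 5 fell and 0 rose, and the median log2 fold change was -0.21. Over all tested records 11.7% fell, and the list itself was not tested. This list, like the others below, was chosen with earlier results of these data known. Its share is therefore a description only. Besides phat-3 and phat-6, scl-3, of a family of secreted SCP/TAPS proteins, went from 175 ± 27.3 to 107 ± 7.69 CPM (SD, n = 3), or on the log2 scale -0.71 ± 0.14 (edgeR, adjusted p = 0.00977). It was past the threshold in every alternative fit tried at an adjusted p of 0.05. The lysozyme gene lys-8 went from 344 ± 40.3 to 224 ± 32.6 CPM, or on the log2 scale -0.62 ± 0.15 (edgeR, adjusted p = 0.0206), a call lost without N2 replicate 2 (0.0662), double mutant replicate 2 (0.0748) or double mutant replicate 3 (0.0716). The fifth was dod-6, named after its value was seen, at -0.41 ± 0.13 (edgeR, adjusted p = 0.0495), a call lost on leaving out any 1 library (0.0613 to 0.180). With library size alone, which shifted the median of all records from -0.01 to 0.21, 2 of the 11 fell, phat-3 and scl-3, and the list's median was 0.01. With 1 library left out 1 to 4 fell, the 1 being without double mutant replicate 3 and the count being 2 without its replicate 2. For the count of 0 rising, DESeq2, limma voom and an unadjusted edgeR p below 0.05 also gave 0, and the replicate block gave 1, phat-5. The list summed to 1230 to 1390 CPM in N2 and 819 to 988 CPM in the double mutant.

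In pharyngeal muscle, of 6 genes tested, 3 fell and 0 rose, beside the 11.7% of all tested records that fell. Fitted values were below 0 in 6 of 6, and the median log2 fold change was -0.60. The troponin genes tni-4 and tnc-2 were at -0.91 ± 0.13 (edgeR, adjusted p = 0.00221) and -0.78 ± 0.15 (edgeR, adjusted p = 0.00809), and tnt-4 at -0.72 ± 0.21 (edgeR, adjusted p = 0.0387). The list summed to 14300 to 21000 CPM in N2 and 10600 to 13900 CPM in the double mutant, and its part in the gland result was not tested. Its median was -0.36 with library size alone, when 2 fell, and 2 to 4 fell with 1 library left out. Of 6 tested pharynx transcription factor genes, ceh-34, a homeobox gene of pharynx development, fell by 0.47 on the log2 scale (edgeR, adjusted p = 0.0313, SE 0.13), and 0 rose. By DESeq2 and limma voom also 0 rose, and 1, peb-1, was higher at an unadjusted edgeR p below 0.05 and passed with the replicate block (1.04, edgeR, adjusted p = 0.0196). With library size alone peb-1 rose and ceh-34 did not fall, and ceh-34 lost its call on leaving out any library but N2 replicate 1 (edgeR, adjusted p from 0.0610 to 0.0963). The homeobox gene pha-2 was at -0.58 ± 0.25, short of the threshold.

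Few or no counts were recorded for abu-1, abu-6 and abu-7 in these starved larvae. The gene abu-6 had 0 counts in all 6 libraries, which allows at most 0.0514 CPM over the N2 group and 0.0457 CPM over the double mutant group. Such limits are for 3 counts and cover counting error only. The gene abu-1 had 10 counts in N2, all in replicate 2, and 6 in the double mutant, all in replicate 3. The gene abu-7 had 6, 7 and 5 counts in N2 and 5, 0 and 2 in the double mutant. Without a count filter abu-7 was at -1.44 ± 0.87 (edgeR, adjusted p = 0.340) and abu-1 at -0.93 ± 1.33 (edgeR, adjusted p = 0.683). Both abu-6 and abu-7 lie next to each other on chromosome V, beside abu-15, which had 6 counts in N2 and 4 in the double mutant. As paralogs they may share reads, whose treatment in the counting is not given in the sources used here, so a low count need not mean a low transcript level. In addition, exons of abu-1 and abu-6 overlap other genes on the opposite strand.

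The tested members abu-8 and abu-11 differed more between replicates than between groups. The levels of abu-8 were 1.48, 5.50 and 0.401 CPM in N2 replicates 1, 2 and 3 and 0.569, 0.607 and 9.89 CPM in the double mutant. In each group 1 library held most of the signal, N2 replicate 2 and double mutant replicate 3. The highest N2 library was 13.7-fold above the lowest, and the highest mutant library 17.4-fold. The log2 fold change was 0.61 ± 1.18 (edgeR, adjusted p = 0.748, 95% interval -2.12 to 3.34). Leaving out double mutant replicate 3 turned it to -2.06, and leaving out N2 replicate 2 raised it to 2.0.

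The gene abu-11 followed the same libraries. It stood at 0.934, 3.07 and 0.20 CPM in N2 and 0.775, 1.43 and 2.85 CPM in the double mutant, with N2 replicate 2 and double mutant replicate 3 again highest. The log2 fold change was 0.28 ± 0.82 (edgeR, adjusted p = 0.834, 95% interval -1.60 to 2.17), at -0.35 without double mutant replicate 3 and 1.60 without N2 replicate 2. On chromosome II abu-11 lies beside chs-2, the chitin synthase gene of the pharynx. Over its 3 records chs-2 had 18 counts in all, of which 7 were in N2 replicate 2 and 8 in double mutant replicate 3. These are too few to test, and the gene was named as a neighbour after the values were seen.

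The other tested abu records also differed widely between replicates, though abu-14 did so less in the double mutant. Of 14 abu genes with a record, 9 were not tested, and 4 had 0 counts in all libraries. Among the untested, abu-2 varied less, with 4, 8 and 7 counts in N2 and 11, 8 and 13 in the double mutant. The gene abu-10 stood at 1.37, 2.48 and 0.15 CPM in N2 and at 0.0517, 0.662 and 6.33 CPM in the double mutant. The gene abu-14, whose product is a component of the pharyngeal cuticle, was the most abundant, at 8.74, 29.7 and 1.30 CPM in N2 and 16.9, 24.4 and 14.3 CPM in the double mutant. The gene abu-13 stood at 1.59, 8.12 and 4.41 CPM in N2 and 4.29, 15.8 and 8.58 CPM in the double mutant. Replicate 2 was the highest in both groups for abu-13 and abu-14, unlike for abu-8, abu-10 and abu-11. Of 5 tested abu records 0 rose and 0 fell in edgeR, in DESeq2, in limma voom and at an unadjusted edgeR p below 0.05. Over all tested records 14.3% rose and 11.7% fell in edgeR, so with 5 records such counts do not set the family apart. With the replicate number as a block, abu-13 was at 1.09 and passed (edgeR, adjusted p = 0.00452), against 1.02 ± 0.61 (edgeR, adjusted p = 0.267) without it.

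N2 replicate 2 was the highest N2 library in 5 of 5 tested abu records, and in 26.6% of all tested records. In the double mutant, replicate 3 was highest in 3 of 5 and replicate 2 in 2 of 5, against 24.4% and 37.2% of all records. The 4 tested epidermis marker genes, all cuticle collagen genes, were highest in N2 replicate 2 and in double mutant replicate 2. Of the 12 tested moulting genes, 6 were highest in N2 replicate 2 and 7 in double mutant replicate 2. The abu family summed to 14.7, 50.3 and 7.16 CPM in N2 and to 23.6, 43.6 and 42.9 CPM in the double mutant. In N2 the abu and collagen genes were thus highest in the same library, and in the double mutant abu-8, abu-10 and abu-11 were highest in replicate 3 and the collagen genes in replicate 2. Without N2 replicate 2 and double mutant replicate 3 together, abu-8 was at -0.66 and abu-10 at -1.08, with abu-11 at 0.97, abu-13 at 1.74 and abu-14 at 2.05, none past the threshold. The part of the moulting and epidermis lists in the abu values was not tested.

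**Figure D4:**
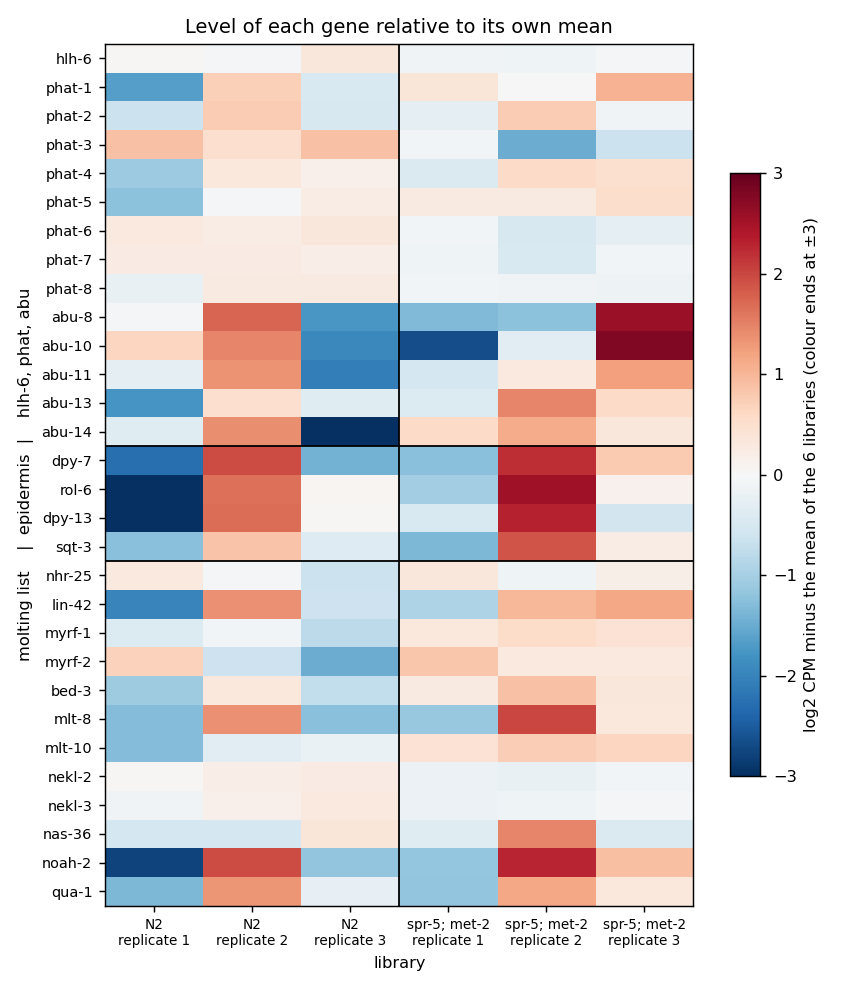
Log2 CPM minus the mean of the 6 libraries (colour) for the tested hlh-6, phat and abu records, the epidermis markers and the moulting list (rows) in each library (columns). The abu rows are high in N2 replicate 2 and, for abu-8, abu-10 and abu-11, in double mutant replicate 3, whereas the collagen rows dpy-7, rol-6, dpy-13 and sqt-3 are high in replicate 2 of both groups. Among the double mutant libraries abu-13 and abu-14 are highest in replicate 2, as the collagen rows are.

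For 6 of the 7 tested genes the spread between replicates was above that of most records of like level, and for hlh-6 it was below. The square root of edgeR's dispersion, which estimates the relative variation between replicates beyond counting error, was 0.961 for abu-8 and 0.692 for abu-11, against a median of 0.224 over all records. Among records within 0.5 log2 units of the same mean level, 99.6% had a lower value than abu-8 and 98.0% a lower value than abu-11. The phat members were less extreme, with 93.9% below phat-3, 94.1% below phat-5, 92.7% below phat-1 and 86.1% below phat-2. At the other end hlh-6 had 0.194, and 15.4% of records of its level were below it. Coefficients of variation over 3 libraries were 14.4% in N2 and 45.8% in the double mutant for phat-3, and 45% and 11% for phat-5. The median over the 7 genes was 60.7% in N2 and 43.7% in the double mutant, against 19.9% and 15.1% over all tested records. These medians include counting error, which is larger for genes with few counts such as phat-1, and were not matched for level. For the more abundant phat records the values were 2.20% in N2 and 13.7% in the double mutant for phat-7, 4.11% and 13.1% for phat-6, and 18.9% and 2.26% for phat-8.

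**Figure D5:**
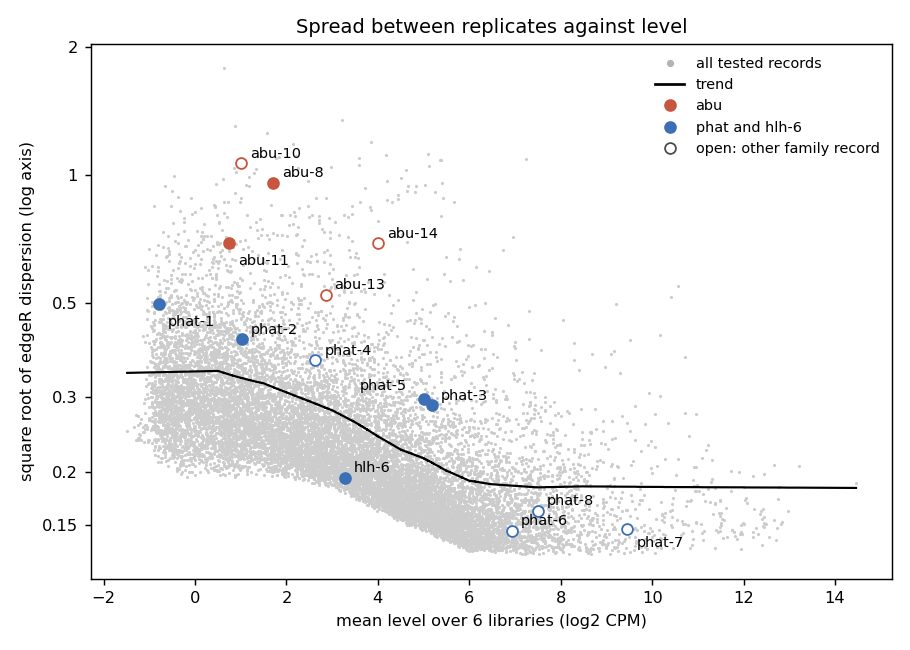
Square root of edgeR's dispersion (vertical axis, log scale) against mean level in log2 CPM (horizontal axis) for all 14557 tested records (grey), with the trend (line) and the hlh-6, phat and abu records marked. The abu records lie far above the trend, with abu-8 at 0.961, and hlh-6 at 0.194 lies below it.

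Related cuticle and stress genes were examined alongside. Their counts may be read beside the 14.3% of all tested records that rose and the 11.7% that fell. Of 25 tested pqn genes, named for prion-like domains rich in glutamine and asparagine, 1 rose and 3 fell, with a median log2 fold change of -0.10. Those that fell were pqn-24 at -0.50 ± 0.14, pqn-94 at -0.42 ± 0.13 and pqn-48 at -0.63 ± 0.20 (SE). The one that rose was pqn-70, by 0.51, measured on a RefSeq record of the non-coding class. With all records of pqn-70 summed the value was 0.13, with no call. With library size alone 0 pqn genes fell and 1 rose, and with 1 library left out 0 to 3 fell and 0 to 1 rose, with 0 falling without N2 replicate 2, double mutant replicate 2 or double mutant replicate 3. Of 18 tested genes with the symbols idpa, idpb, idpc and idpp, 3 fell and 0 rose, with a median of -0.24. They were idpa-3 at -1.05 ± 0.24, idpp-15 at -0.85 ± 0.24 and idpp-16 at -0.45 ± 0.14, and 0 also rose by DESeq2, limma voom and an unadjusted edgeR p below 0.05. With library size alone 1 fell, idpa-3, and with 1 library left out 0 to 3 fell, with 0 without double mutant replicate 2 or 3. The median was -0.48 without double mutant replicate 3, -0.47 without N2 replicate 1, -0.40 without N2 replicate 3 and -0.12 without N2 replicate 2. In the nspb family 1 of 12 genes was tested, nspb-11, at -0.16 ± 0.60. Of the 4 genes listed for making or supplying the pharyngeal cuticle 2 were tested and 0 passed in either direction, by edgeR with and without adjustment, DESeq2 or limma voom. The transporter gene pgp-14, needed to carry lipid to that cuticle, was at 280 ± 24.0 and 294 ± 45.4 CPM (SD, n = 3), differing on the log2 scale by 0.08 ± 0.15 (edgeR, adjusted p = 0.750).

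Genes of the ER unfolded protein response were examined because of the abu genes' name. Of 18 listed, 14 were tested, 2 rose and 0 fell, and 13 of 14 fitted values were above 0, and the median log2 fold change was 0.40. Over all tested records 14.3% rose. The median was 0.20 without double mutant replicate 2 and 0.25 without N2 replicate 3, and 1 rose on leaving out any library but N2 replicate 1, when 2 rose. The calnexin gene cnx-1, an ER chaperone, rose from 27.9 ± 5.02 to 63.1 ± 10.4 CPM (SD, n = 3), or on the log2 scale 1.18 ± 0.18 (edgeR, adjusted p = 0.00293). The sensor gene ire-1 was at 0.68 ± 0.21 (edgeR, adjusted p = 0.0487), a call lost on leaving out any 1 library (edgeR, adjusted p from 0.0551 to 0.129). The chaperone gene enpl-1 at 0.91 ± 0.37 and the engulfment receptor gene ced-1 at 0.47 ± 0.19 did not pass. The count rising was 6 with library size alone, when the median was 0.63, and 6 with the replicate block. No counts were recorded for xbp-1, hsp-3, hsp-4 and ero-1 in any library, so these 4 genes of the pathway gave no measurement. For the count of 0 falling, DESeq2, limma voom and an unadjusted edgeR p below 0.05 also gave 0.

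Among 12 tested genes of moulting and its timing, 2 rose and 0 fell, beside the 14.3% of all tested records that rose. The median log2 fold change of the 12 was 0.68. That median was 0.06 without double mutant replicate 2, when 6 of 12 fitted values were below 0, and it was 0.27 without N2 replicate 3, 0.38 without N2 replicate 1 and 1.05 without N2 replicate 2. The transcription factor gene myrf-1 rose from 77.7 ± 18.7 to 138 ± 11 CPM (SD, n = 3), or on the log2 scale 0.83 ± 0.18 (edgeR, adjusted p = 0.0129), and mlt-10 by 1.14 ± 0.28 (edgeR, adjusted p = 0.0195). The count of 0 falling was the same by DESeq2, limma voom and an unadjusted edgeR p below 0.05. The list summed to 145, 333 and 161 CPM in N2 and 230, 450 and 303 CPM in the double mutant, with replicate 2 highest in both groups. With the replicate block 5 rose, 3 rose without N2 replicate 1 or 2, and 1 rose without double mutant replicate 2 or 3, since mlt-10 then lost its call (edgeR, adjusted p = 0.0633 and 0.0655).

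Other tissues gave the setting for these values. Over all tested records 14.3% rose and 11.7% fell. Of 9 intestine markers 2 rose and 4 fell, while 1 rose by limma voom or on leaving out any 1 library, 3 with the replicate block and 4 with library size alone. Among them were elt-2, the intestinal GATA factor gene, at 1.54 ± 0.24 and the metallothionein gene mtl-2 at -1.53 ± 0.22. Of 3 tested body wall muscle markers unc-27 fell by 0.90 on the log2 scale (SE 0.12) and 0 rose, also by DESeq2, limma voom and an unadjusted edgeR p below 0.05. Of 7 neuron markers 0 rose and 0 fell in edgeR, DESeq2 and limma voom, with 1 lower at an unadjusted edgeR p below 0.05, 1 lower with the replicate block and 1 lower without double mutant replicate 1. The most abundant, egl-21, was at -0.32 ± 0.15. The median of the neuron list was -0.22, and 0.01 with library size alone. The 4 tested germline markers all rose, with prg-1 at 4.52 ± 0.14. The part of these tissues in the values of the pharynx genes was not tested.

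Records with a profile like that of the phat and abu genes were sought among 8069 named records of at least 5 CPM, by Pearson's r with the mean log2 CPM over the 6 libraries. Closest to the mean of the 4 phat members were EGAP2.1 (r = 0.974), C17G10.7 (0.974), F02D8.4 (0.968), hmit-1.1 (0.965) and ttr-28 (0.964). The 4 members did not share a profile, as phat-3 fell while phat-1, phat-2 and phat-5 had fitted values above 0. Their mean is thus not the profile of phat-3. The records closest to it had log2 fold changes from -0.47 to 0.13, none past the threshold. Closest to the mean of abu-8 and abu-11 were the collagen gene col-77 (r = 0.961), pcaf-1 (0.935), flwr-1 (0.930), atad-3 (0.913) and lec-1 (0.894). The levels of col-77 were 6.43, 14.8 and 5.01 CPM in N2 and 6.31, 8.11 and 13.8 CPM in the double mutant. With 6 libraries, and profiles that share library and scaling, such values describe likeness only.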

How the data were processed

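RNA from 3 N2 and 3 double mutant samples was compared, grouped by sample titles. The deposited tables give whole-number counts for RefSeq transcript records. Reads were aligned with HISAT2, per the file headers. The submitters' processing notes name FastQC, Trimmomatic, featureCounts, DESeq2 (version 2.11.40.2) and genome build ce10. The authors' deposited comparison table holds base means (a normalised signal), log2 fold changes, standard errors, Wald statistics (scores) and p-values.

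Names came from RefSeq (assembly WBcel235) for 46074 of 50832 records. Exonic lengths, exon overlaps and gene order came from annotations of that assembly, so no coordinates are printed, and sequences were not used here. Where a listed gene has several records, the most abundant was used, and chs-2 counts were summed.

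Records passing filterByExpr (at least 10 counts, total at least 15) were scaled by TMM (factors 0.827 to 1.11) and tested two-sided with edgeR 4.0.16 (quasi-likelihood, R 4.3.3), p-values being adjusted by Benjamini-Hochberg over the whole table (threshold 0.05). The code was tested on simulated data. The SE is the log2 fold change over the square root of F. Log2 CPM used a prior count of 2. Alternatives included other scalings and filters, DESeq2 1.42.0, limma voom (limma 3.58.1), a replicate block and leaving out each library. Deviations from the group means correlated between same-numbered libraries at 0.456, 0.356 and 0.186 for numbers 1, 2 and 3. Between libraries of different number the correlations ran from -0.372 to 0.0903. Because deviations are taken from each group's own mean, the correlations for same and different numbers are not independent of each other. The replicate block, an alternative, treats the numbers as pairs, and the fit reported does not. The ground for pairing comes from the data, as the labels do not say what a number shares.

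The text names the 10 genes, the other tested abu and phat records, the 4 genes of a list or family with the lowest adjusted p (or its most abundant gene where none passed), and the 5 records nearest in profile. The 4 count ratios, chs-2, dod-6, collagen genes and moulting genes in the account of single libraries were added after values were seen. Members and lists were chosen with earlier results of these data known.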

Additional observations from a re-analysis of the deposited data

How the results depend on the processing

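Of the 7 tested genes, 1 fell and 0 rose in the fit reported. At an adjusted p below 0.01 the count falling was 0, and with libraries left out 1 at a time it was 0 to 1, with 0 without double mutant replicate 3. It was also 0 without N2 replicate 2 and double mutant replicate 3 together, a choice made after seeing the data that left 2 libraries per group. The count rising was 1 with the replicate block, the only setting that moved it. Over all records, calls numbered 3773, and 1879 at an adjusted p below 0.01, 2210 to 3849 with 1 library left out, 5129 with the replicate block and 1103 with both libraries left out. Among the hlh-6, phat and abu records the block added phat-5 and abu-13, and it ended no call named here. It raised the number of list genes called higher from 2 to 6 (ER), 2 to 5 (moulting), 2 to 3 (intestine), 0 to 1 (pharynx factors) and 0 to 1 (epidermis), and lower from 0 to 1 (neurons), 3 to 4 (pharyngeal muscle), 3 to 4 (pqn) and 3 to 4 (idp).

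Fitted values that changed sign, none of them past the threshold, were hlh-6 (0.01), unc-54 (0.18) and nspb-11 (0.10) with library size only, abu-10 (-0.01) with limma voom, and abu-8 (-0.10) and abu-10 (-0.07) with the block. With libraries left out, 1 at a time or both together, the ranges that crossed 0 were phat-2 (-0.23 to 0.94), dpy-13 (-1.03 to 2.33), myo-3 (-0.55 to 0.07), unc-54 (-0.27 to 0.19), nspb-11 (-1.35 to 0.20), abu-11 (-0.35 to 1.60), abu-14 (-0.08 to 2.05), pgp-14 (-0.02 to 0.20), abu-8 (-2.06 to 2.0) and abu-10 (-1.90 to 1.67). The cause was not tested. Without both libraries abu-8 was at -0.66 and abu-10 at -1.08. With 1 CPM required in 3 libraries phat-1 was not tested. Counts of abu-1, abu-7 and phat-1 were so few that single counts move the level. For the abu and phat genes the part of any reads shared by paralogs was not tested.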
